A study of Mus musculus with 6 samples.

Results

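The transcripts described here are 10 targets or relatives of the tumour suppressor p53, namely Cdkn1a (p21), Mdm2, Phlda3, Ccng1, Eda2r, Trp63, Zfp365, Bax, Trp53inp1 and Sesn1, in a mouse muscle that overexpresses FRG1 (FSHD region gene 1). For brevity all 10 are called p53 targets below, although Trp63 is a p53 relative. The human FRG1 gene lies close to the repeats whose loss is tied to facioscapulohumeral muscular dystrophy (FSHD). RNA of the vastus lateralis, a part of the quadriceps, was measured on Illumina mouse bead arrays in 3 FRG1 transgenic mice (Sample871, Sample873 and Sample874) and 3 wild type mice (Sample872, Sample906 and Sample923). All 6 were C57Bl/6J females aged 4 weeks, and there was 1 array per sample. The labels give neither the promoter nor the copy number of the transgene, and they do not say whether the transgenic mice came from 1 founder line.

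The 10 genes were chosen from this same comparison of FRG1 with wild type muscle, so their levels and fold changes are a description and carry no test. Every probe that the platform annotation gives 1 of these symbols was taken. Of the 10 genes, 8 had such a probe, with 16 probes among the 46632 of the array, and Bax and Sesn1 were not analysed here. A detection p-value gives the chance that a blank bead is as bright as the probe, and probes with one under 0.05 on at least 3 of the 6 arrays were retained. That left 15 probes of the 8 genes among 19563 retained probes of all genes. Just inside that limit stood a dim Eda2r probe, detected on 3 arrays, and the probe outside it was a Trp63 probe detected on 0 arrays. The highest-signal retained probe of each of the 8 genes was detected on all 6 arrays, so none of these 8 entered through the FRG1 group alone.

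In cells with damaged DNA or other stress, p53 is freed from its inhibitor Mdm2 and binds paired ten-base elements near its target genes. The targets stop the cell cycle (p21), switch p53 off again (Mdm2), hold back survival signals (Phlda3) or act in cell death (Bax). In skeletal muscle p21 has a further role, since it rises when myoblasts leave the cell cycle and fuse, and Cdkn1a is also induced in denervated or wasting muscle.

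The promoters of the genes are shown first because direct targets carry a p53 element, often here but also in introns or farther away. The windows are those of RefSeq on GRCm38.p6, from 250 bases before to 50 bases after a transcript's start. They hold 10 promoters of 8 of the 10 genes, with none for Trp63 or Trp53inp1. They were searched on both strands for the p53 decamer consensus (3 purines, C, 2 bases that are A or T, G and 3 pyrimidines), which is its own reverse complement. They were also searched for a pair of decamers, at most 13 bases apart, with at most 2 mismatches over the pair and the C and G of each decamer kept, so that single and paired matches overlap. Capitals mark matching decamers and the decamers of such pairs. The 3 promoters below carry the closest pairs among the genes with a measured probe.
Cdkn1a, GRCm38.p6 chr17:29090729-29091028, plus strand: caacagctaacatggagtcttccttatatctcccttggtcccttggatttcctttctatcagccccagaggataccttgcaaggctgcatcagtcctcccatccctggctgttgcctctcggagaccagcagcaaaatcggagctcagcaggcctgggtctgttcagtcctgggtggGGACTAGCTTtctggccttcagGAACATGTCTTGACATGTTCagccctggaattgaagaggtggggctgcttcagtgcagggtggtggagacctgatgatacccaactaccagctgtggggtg
Ccng1, GRCm38.p6 chr11:40755237-40755536, minus strand: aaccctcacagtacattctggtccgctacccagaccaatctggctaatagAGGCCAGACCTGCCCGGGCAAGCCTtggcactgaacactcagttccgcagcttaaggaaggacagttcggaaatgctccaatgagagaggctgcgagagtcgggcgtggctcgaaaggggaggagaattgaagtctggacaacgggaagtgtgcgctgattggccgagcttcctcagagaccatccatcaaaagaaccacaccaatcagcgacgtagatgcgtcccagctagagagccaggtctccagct
Zfp365, GRCm38.p6 chr10:67912613-67912912, minus strand: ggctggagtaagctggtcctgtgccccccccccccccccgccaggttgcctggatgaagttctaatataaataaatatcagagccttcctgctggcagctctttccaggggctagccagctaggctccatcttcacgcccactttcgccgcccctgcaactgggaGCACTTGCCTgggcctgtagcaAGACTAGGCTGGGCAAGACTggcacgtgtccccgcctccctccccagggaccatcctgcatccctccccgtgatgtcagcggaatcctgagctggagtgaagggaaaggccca

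The Cdkn1a window belongs to the upstream of its 2 RefSeq starts. It held a decamer that begins 73 bases before the start and another that begins 51 bases before it, which form a pair with a 12-base spacer and 0 mismatches. The second also opened the pair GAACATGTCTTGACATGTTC, with no spacer and 1 mismatch. That pair began 2841 bases before the downstream start, whose own window held no match. The Ccng1 window held the pair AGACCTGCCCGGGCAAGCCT, with 1 mismatch, from 195 bases before the start. The Zfp365 window held 2 pairs with 2 mismatches each, from 85 and from 63 bases before the start, and no decamer without a mismatch.

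Mdm2 (chr10:117710709-117711008, minus strand) had a single decamer, GAACTTGCCT, from 186 bases before the start. The windows of Phlda3 and Eda2r held none, which says only that these letters do not occur in these windows. Bax had a decamer from 201 bases before its start and Sesn1 had one from 173 bases before the second of its 2 starts, both within pairs that had 2 mismatches. At least 1 decamer stood in 5 of the 10 promoters (50%) and at least 1 pair in 5 (50%). Both counts include Bax and Sesn1, whose levels were not analysed. Over all 32851 RefSeq promoters of that length, 2745 (8.36%) held a decamer and 1342 (4.09%) a pair. Among 54 promoters of 38 further p53 targets, 11 (20.4%) held a decamer and 5 (9.26%) a pair. The genes were taken as p53 targets or relatives, so nothing about this muscle is read from these shares. A match is a description of letters, and binding of p53 was not measured in this muscle.

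**Figure D1:**
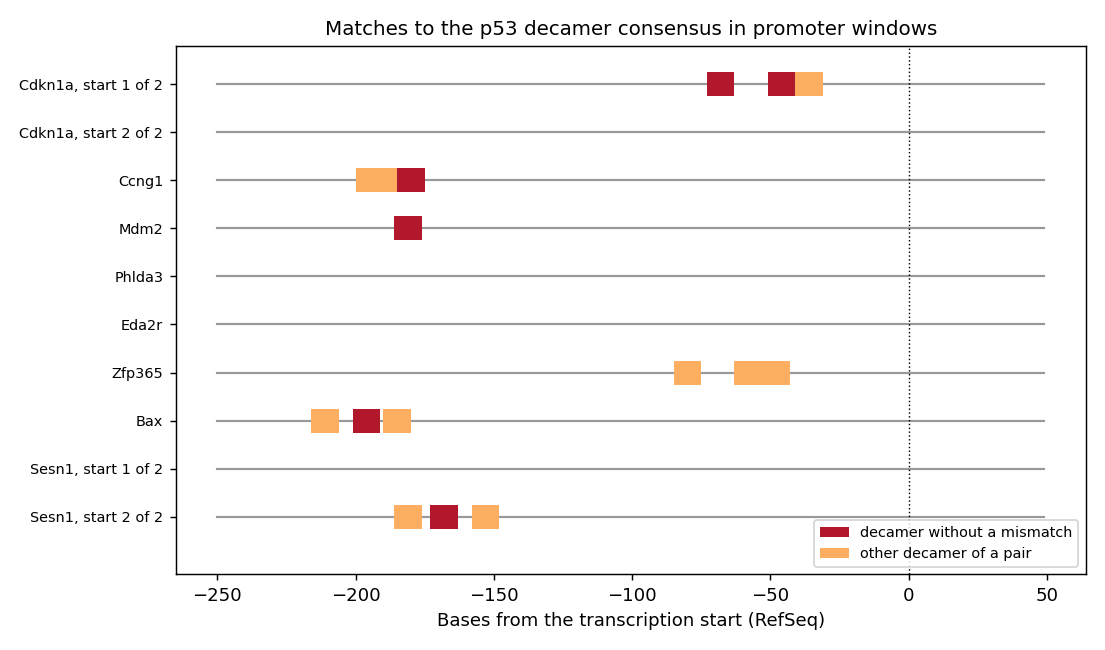
Positions of matches to the p53 decamer consensus in the RefSeq promoter windows of the p53 targets, in bases from the transcript's start, with 1 row per promoter and dark marks for decamers without a mismatch and light marks for the other decamers of a pair. The upstream Cdkn1a window has a pair from 51 bases before the start, and the windows of Phlda3 and Eda2r have no mark.

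The arrays had summed signals of 10537335 to 13062182 intensity units and between 17957 and 20000 detected probes, with wild type Sample923 lowest on both counts. Precision is limited by there being 3 arrays in each group, and the labels do not say how the mice were bred, so errors measure only the spread between these samples. Wild type Sample923 stood apart from the other wild type samples on the second principal component (19.2% of the variance), at -27.8 against 14.9 and 21.2 for Sample872 and Sample906. The single Frg1 probe was detected on 0 of 6 arrays, so neither the transgene nor the labels could be checked by it. Markers of skeletal muscle were bright in every sample, with summed normalized intensities of 158863 to 170021 in FRG1 muscle and 161032 to 171805 in wild type muscle over all 8 genes listed, of which Myh4 alone passed (lower, -0.45 ± 0.13 SE on the log2 scale).

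Macrophage genes were higher in FRG1 muscle in 6 of 8 measured (of 10 listed), by the limma call that 7.53% of all genes met as higher and 7.23% as lower. Their summed intensity was 2288 to 3036 in FRG1 muscle and 1299 to 1536 in wild type muscle, and Lyz2 and Ctss, both of the macrophage lysosome, had log2 fold changes of 1.06 ± 0.15 and 1.03 ± 0.14 (SE). Endothelial genes were lower in 3 of 7, with sums of 2395 to 3003 in FRG1 muscle and 3210 to 3681 in wild type muscle. The neutrophil genes S100a8 and S100a9 summed to 1810 in FRG1 Sample871, to 62.0 and 68.7 in the other FRG1 samples, and to between 22.9 and 35.5 in wild type muscle. Of the other lists, 1 of 2 lymphocyte genes was higher (Cd79b), 1 of 5 fibroblast genes was lower (Col1a1), and of 3 satellite cell and 3 Schwann cell genes none passed (1 and 2 of them at an unadjusted p under 0.05 by limma, all lower). At that unadjusted threshold 1456 of all 10287 genes were higher and 1680 lower. The satellite cell markers Pax7, Myf5 and Calcr were not retained. The part of these cell types in the levels of the p53 targets was not tested, and in whole muscle fewer cells of a type and less RNA per cell cannot be told apart.

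All 8 measured p53 targets had a higher mean in FRG1 than in wild type muscle by their highest-signal probe, and their median log2 fold change was 1.45, against -0.03 over all 10287 genes. Cdkn1a, Eda2r and Zfp365 differed most, between 6-fold and 8-fold, and Trp63 differed by 3.24-fold. Phlda3 and Mdm2 were about 2-fold apart, and Ccng1 and Trp53inp1 differed by less than 1.3-fold. The 3 FRG1 samples lay above the 3 wild type samples for 7 of the 8 genes, against 16.9% of all genes. The limma call at an adjusted p under 0.05 was met by 6 of the 8, against 7.53% of all genes called higher. Since the choice of the genes fixed both counts, nothing is read from them.

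**Figure D2:**
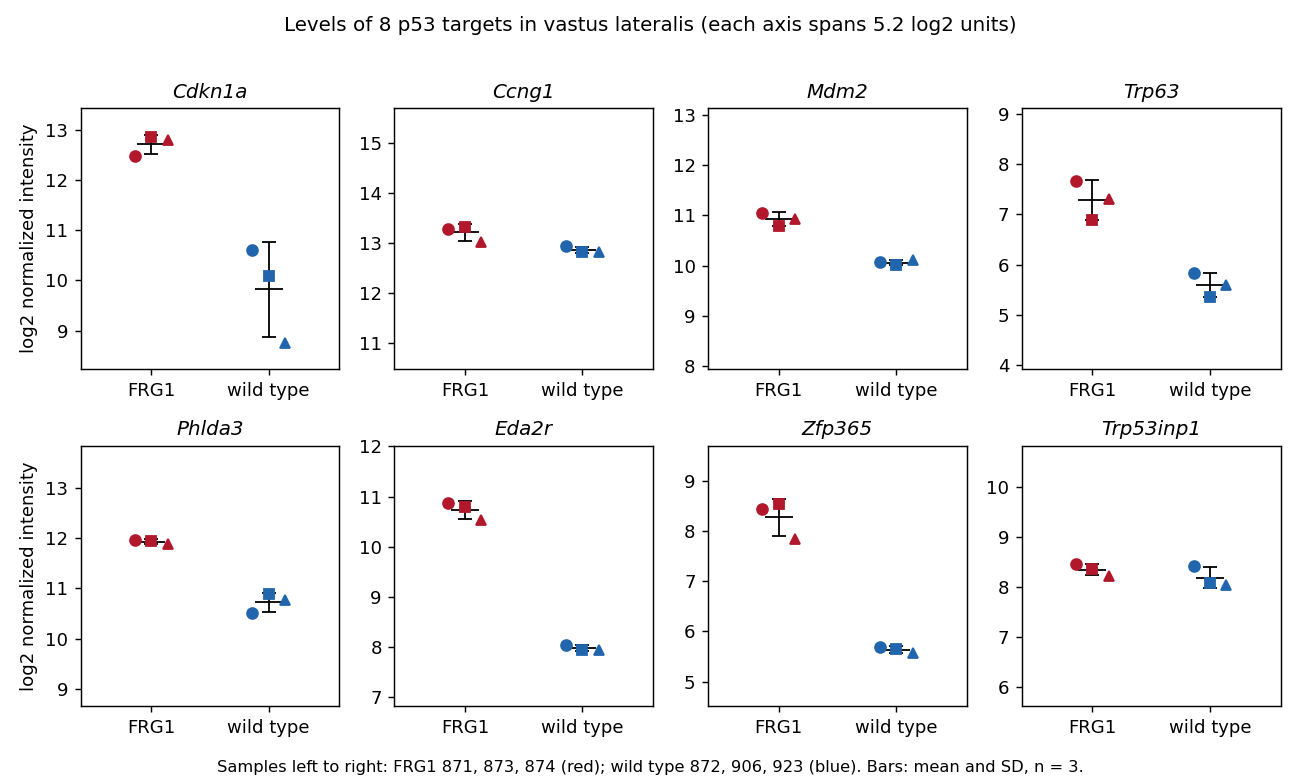
Normalized log2 intensity of the highest-signal probe of each measured p53 target in FRG1 samples (left of each panel) and wild type samples (right), with 1 point per sample, the group mean as a line and bars for the SD (n = 3 each). Cdkn1a, Eda2r, Zfp365, Trp63, Phlda3 and Mdm2 have wide gaps between the groups, Ccng1 a gap of 0.09, and the Trp53inp1 groups overlap.

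Cdkn1a encodes p21, which inhibits cyclin-dependent kinases and so stops cells before they copy their DNA. Probe ILMN_1214871 read 12.49, 12.86 and 12.79 on the log2 scale in FRG1 Sample871, Sample873 and Sample874, against 10.61, 10.09 and 8.76 in wild type Sample872, Sample906 and Sample923. Its mean was 12.71 ± 0.19 in FRG1 muscle and 9.82 ± 0.95 in wild type muscle (SD, n = 3 each), a log2 fold change of 2.89 ± 0.37 (SE), or 7.43-fold. The FRG1 samples agree closely with each other and lie far above the wild type samples, which spread over almost 2 log2 units.

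Wild type Sample923 was the lowest of them by this probe. Before normalization its signal was 393.5 intensity units, against 1738 and 1035 in the other wild type samples and 5329, 8407 and 7358 in the FRG1 samples. The second probe, ILMN_2634083, read 11.48, 11.63 and 11.72 in FRG1 muscle and 9.72, 9.04 and 8.95 in wild type muscle, with Sample923 close to Sample906. By that probe the difference was 2.37 ± 0.20 (SE), or 5.18-fold. Both probes separate the groups by more than 1.7 log2 units at the nearest pair of samples, and without Sample923 the first probe gave a log2 fold change of 2.36.

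Ccng1 encodes cyclin G1, a p53 target that recruits a phosphatase to Mdm2 and takes part in switching p53 off. Probe ILMN_2500276 read 13.29, 13.33 and 13.03 in FRG1 Sample871, Sample873 and Sample874, against 12.94, 12.82 and 12.83 in wild type Sample872, Sample906 and Sample923. The means were 13.22 ± 0.17 in FRG1 muscle and 12.86 ± 0.06 in wild type muscle (SD, n = 3 each), a log2 fold change of 0.35 ± 0.13 (SE), or 1.28-fold. The groups touch but do not cross, with 0.09 log2 units between the lowest FRG1 and the highest wild type sample.

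The 3 dimmer Ccng1 probes had log2 fold changes of 0.63 ± 0.19 (ILMN_2710229), 0.53 ± 0.18 (ILMN_2702233) and 0.18 ± 0.24 (ILMN_2689489, SE). The groups overlapped for the last of these, where FRG1 Sample874 and wild type Sample923 were each the highest of their group. No Ccng1 probe met the threshold, although the mean was higher in FRG1 muscle by all 4.

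Mdm2 is the ubiquitin ligase that marks p53 for breakdown and is itself a p53 target, which closes a feedback loop. Probe ILMN_1250774 read 11.06, 10.79 and 10.93 in FRG1 Sample871, Sample873 and Sample874, against 10.06, 10.01 and 10.10 in wild type Sample872, Sample906 and Sample923. The means were 10.92 ± 0.14 in FRG1 muscle and 10.06 ± 0.04 in wild type muscle (SD, n = 3 each), a log2 fold change of 0.86 ± 0.12 (SE), or 1.82-fold. The wild type samples lie within 0.1 log2 units of each other, and each FRG1 sample lies above them by several times that spread.

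The second Mdm2 probe, ILMN_1229882, was far dimmer. It read 5.14, 4.87 and 5.28 in FRG1 muscle and 4.79, 4.71 and 5.27 in wild type muscle, was detected on 3 FRG1 arrays and 1 wild type array, and had a log2 fold change of 0.17 ± 0.17 (SE). The groups overlapped, at signals near the limit of detection.

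Trp63 encodes p63, a p53 relative that binds much the same DNA elements and is best known from the basal layer of stratified epithelia. Probe ILMN_1216742 read 7.68, 6.89 and 7.31 in FRG1 Sample871, Sample873 and Sample874, against 5.84, 5.35 and 5.60 in wild type Sample872, Sample906 and Sample923. The means were 7.29 ± 0.39 in FRG1 muscle and 5.60 ± 0.24 in wild type muscle (SD, n = 3 each), a log2 fold change of 1.69 ± 0.20 (SE), or 3.24-fold. The groups lie more than 1 log2 unit apart at the nearest samples, although the FRG1 samples vary more than for Mdm2 or Phlda3. In wild type Sample872, Sample906 and Sample923 the probe was dim, with signals before normalization of 84.6, 65.8 and 63.9 intensity units.

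The other Trp63 probe, ILMN_2576403, was detected on 0 of 6 arrays and gives no fold. The keratins that mark basal epithelium, Krt5, Krt14 and Krt15, were not detected on any array either. Over the stratified epithelium list, 2 of 8 genes were measured and neither passed (0 at an unadjusted p under 0.05 by limma, beside 1456 higher and 1680 lower of all 10287 genes). Their summed intensities were 198 to 231 in FRG1 muscle and 208 to 255 in wild type muscle.

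Phlda3 is a small protein with a pleckstrin homology domain that competes with the survival kinase Akt for membrane lipids. Its single probe, ILMN_2628567, read 11.97, 11.94 and 11.88 in FRG1 Sample871, Sample873 and Sample874, against 10.52, 10.89 and 10.77 in wild type Sample872, Sample906 and Sample923. The means were 11.93 ± 0.05 in FRG1 muscle and 10.73 ± 0.19 in wild type muscle (SD, n = 3 each), a log2 fold change of 1.21 ± 0.13 (SE), or 2.31-fold. The FRG1 samples are almost equal, and the groups stand 0.99 log2 units apart at the nearest samples.

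Eda2r is a receptor of the tumour necrosis factor family that binds the A2 form of ectodysplasin and signals to NF-kappaB, and it is known in mice as a receptor of wasting muscle. Probe ILMN_2506555 read 10.87, 10.80 and 10.53 in FRG1 Sample871, Sample873 and Sample874, against 8.04, 7.95 and 7.94 in wild type Sample872, Sample906 and Sample923. The means were 10.73 ± 0.18 in FRG1 muscle and 7.98 ± 0.06 in wild type muscle (SD, n = 3 each), a log2 fold change of 2.76 ± 0.13 (SE), or 6.76-fold. The gap between the nearest samples, 2.49 log2 units, was the widest among the 8 genes.

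The dim second Eda2r probe, ILMN_2637295, was detected on 3 FRG1 arrays and on 0 wild type arrays. It read 5.45, 5.41 and 5.82 in FRG1 muscle, while the wild type readings of 4.53, 4.58 and 4.71 were not well above background. Set against the lowest detected signal of the wild type arrays it was at least 1.63-fold higher in FRG1 muscle. That probe was retained through the FRG1 group, so it had to differ.

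Zfp365 encodes a zinc finger protein whose human counterpart, ZNF365, is a p53 target linked to the recovery of stalled replication forks. Probe ILMN_1217442 read 8.44, 8.54 and 7.85 in FRG1 Sample871, Sample873 and Sample874, against 5.69, 5.66 and 5.56 in wild type Sample872, Sample906 and Sample923. The means were 8.28 ± 0.37 in FRG1 muscle and 5.64 ± 0.07 in wild type muscle (SD, n = 3 each), a log2 fold change of 2.64 ± 0.18 (SE), or 6.24-fold. FRG1 Sample874 is the lowest of its group and still lies 2.16 log2 units above the highest wild type sample. The wild type side was dim, with signals before normalization of 79.1, 74.5 and 63.1 intensity units in Sample872, Sample906 and Sample923.

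A second Zfp365 probe, ILMN_2474128, read 6.16, 5.97 and 5.94 in FRG1 muscle and 5.53, 5.70 and 5.63 in wild type muscle. The groups did not overlap, but the log2 fold change was 0.40 ± 0.12 (SE). The probes differ in size and not in direction, and which transcripts each one reads was not determined.

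Trp53inp1 encodes a nuclear protein that helps p53 in stress responses and takes part in autophagy. Its single probe, ILMN_1220461, read 8.47, 8.36 and 8.23 in FRG1 Sample871, Sample873 and Sample874, against 8.43, 8.09 and 8.04 in wild type Sample872, Sample906 and Sample923. The means were 8.35 ± 0.12 in FRG1 muscle and 8.19 ± 0.21 in wild type muscle (SD, n = 3 each), a log2 fold change of 0.17 ± 0.14 (SE). Wild type Sample872 reaches into the FRG1 range, so the groups overlap.

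Of the 15 retained probes, 8 met the limma threshold as higher and 0 as lower, beside 7.1% of all retained probes called higher (1389 of 19563). Nothing is read from this count, since the genes were chosen from this same comparison. The 8 also include the dim Eda2r probe, which was retained through the FRG1 group alone. For Cdkn1a, Eda2r, Zfp365 and Mdm2, which have 2 retained probes each, the dimmer probe showed the smaller difference. The average of the retained probes was therefore lower than the values above, at 2.63 for Cdkn1a, 1.85 for Eda2r, 1.52 for Zfp365 and 0.52 for Mdm2 on the log2 scale.

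**Figure D3:**
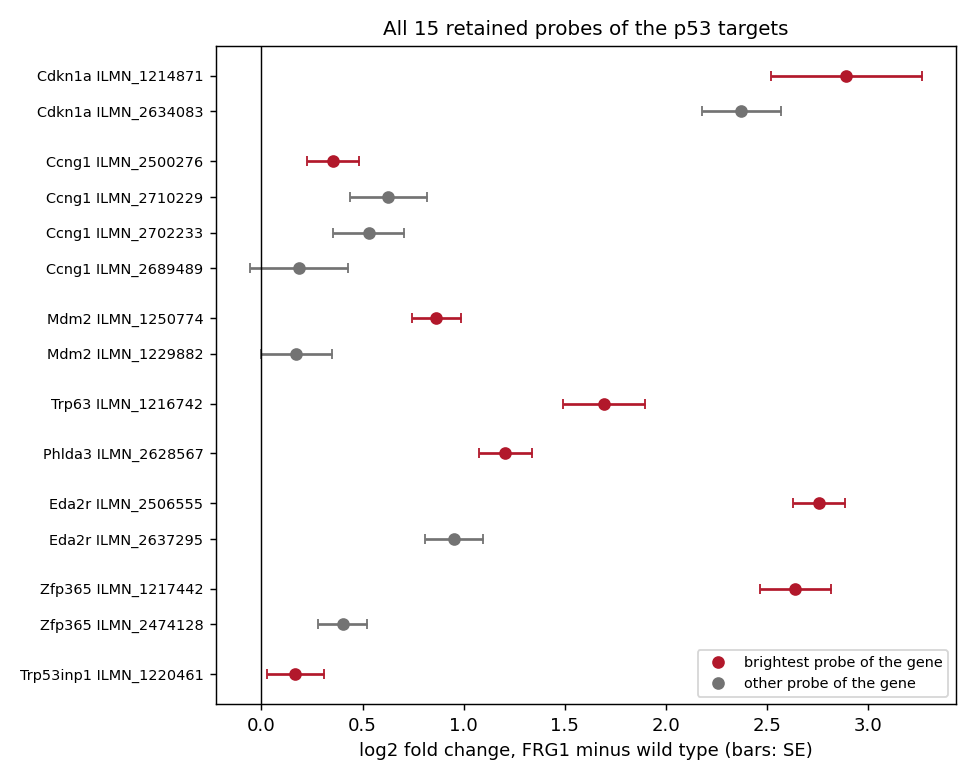
Log2 fold change (FRG1 minus wild type) of all 15 retained probes of the p53 targets, with 1 point per probe and bars for the SE (3 samples in each group). All 15 lie above 0, and Eda2r, Zfp365 and Mdm2 each have 1 probe far to the right of the other. The genes were chosen from this comparison. The dimmer Eda2r probe was retained through the FRG1 group alone, so it had to lie above 0.

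The samples of a group did not rank alike for every target. FRG1 Sample871 was the highest of its group for 5 of the 8 genes and Sample873 for 3, and Sample874 for 0. Among wild type samples, Sample872 was highest for 6 genes, and Sample906 and Sample923 for 1 each. Without Sample871, the library with bright S100a8 and S100a9, the log2 fold changes were 2.69 for Eda2r, 2.56 for Zfp365, 1.50 for Trp63, 1.18 for Phlda3 and 0.80 for Mdm2. These are close to the values over all samples. That of Cdkn1a lay between 2.36 and 3.29 when each sample was left out in turn.

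By the smallest root mean square difference of centred log2 values over the 6 samples, the genes most like Cdkn1a were Chrng (0.48), Myl4 (0.50), Sox11 (0.52), Ddc (0.54) and Eda2r (0.56). Chrng encodes the acetylcholine receptor subunit of fetal muscle, Myl4 the myosin light chain of embryonic muscle and atrium, Sox11 a transcription factor of neural development and Ddc the decarboxylase of dopamine and serotonin synthesis. Chrng read 7.44, 7.62 and 6.92 in FRG1 Sample871, Sample873 and Sample874, against 5.13, 4.77 and 4.46 in wild type Sample872, Sample906 and Sample923. Its readings in Sample906 and Sample923 were below the lowest detected levels of those arrays (4.82 and 4.91), so they stand for background. Myl4 read 11.66, 11.85 and 11.33 in FRG1 muscle and 8.78, 8.70 and 8.48 in wild type muscle. Both lie well apart between groups, as Cdkn1a does, but they were picked for this profile, so nothing is read from that. Ddc read 4.79, 4.81 and 4.59 in wild type Sample872, Sample906 and Sample923. These lay below the lowest detected levels of those arrays (4.85, 4.82 and 4.91). Ddc was thus retained through the FRG1 group alone and had to be higher there. Zfp365 ranked 8th by this measure, Trp63 47th, Phlda3 148th, Mdm2 316th, Ccng1 1281st and Trp53inp1 2065th of the retained genes, an order that follows the size of the difference between the groups.

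**Figure D4:**
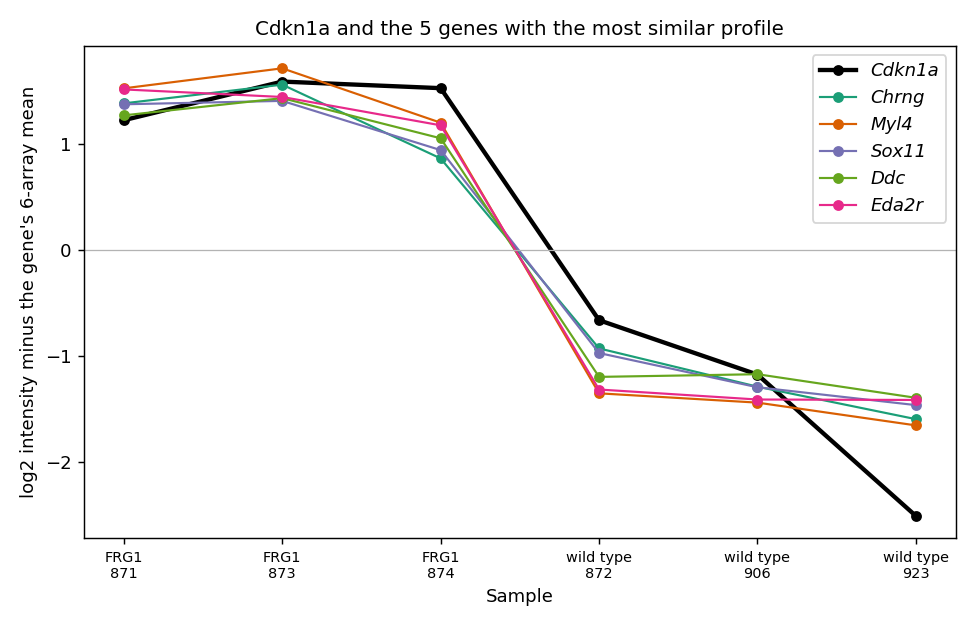
Log2 intensity minus each gene's mean over 6 samples, for Cdkn1a and the 5 genes with the most similar profile, with 1 line per gene and the FRG1 samples left of the wild type samples. All 6 genes are high in FRG1 samples, and in wild type Sample923 the line of Cdkn1a lies below the other 5. Ddc was not detected in the wild type samples, so it had to be higher in the FRG1 samples.

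The other genes of the pathway were taken as 7 lists written from textbook knowledge, with earlier results of these data known. The calls are those of limma with Benjamini-Hochberg adjustment over all 19563 retained probes, and they stand beside 7.53% of all genes called higher and 7.23% called lower. Of 46 other p53 targets, 30 were measured, and 3 were higher and 1 lower in FRG1 muscle. Their median log2 fold change was 0.11, against -0.03 over all genes, and 17 of the 30 were above 0. At an unadjusted p under 0.05 by limma, 10 were higher and 1 lower, beside 1456 and 1680 of all 10287 genes. All FRG1 samples lay above all wild type samples for 9 of the 30 and below them for 4, beside 1737 and 2033 of all genes.

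Gadd45a, a growth arrest and DNA damage response gene, read 10.87, 10.97 and 10.73 in FRG1 Sample871, Sample873 and Sample874, against 10.05, 9.78 and 10.01 in wild type Sample872, Sample906 and Sample923. It was 1.88-fold higher in FRG1 muscle (log2 fold change 0.91 ± 0.13 SE, limma adjusted p = 0.00178). Rps27l, a ribosomal protein relative that binds Mdm2, was 1.62-fold higher (0.70 ± 0.12, limma adjusted p = 0.0051). Gpx1, a glutathione peroxidase, was 1.41-fold higher (0.50 ± 0.11, limma adjusted p = 0.0166), and this call ended without FRG1 Sample871 (limma adjusted p = 0.064) or Sample873 (limma adjusted p = 0.066). Trp53i11 was 1.61-fold higher in wild type muscle (-0.69 ± 0.13, limma adjusted p = 0.00827), a call that ended under median scaling.

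The rest of the list did not pass. Zmat3, an RNA-binding p53 target, had 0.44 ± 0.13 (limma adjusted p = 0.0556), and the death receptor Fas had -0.28 ± 0.13 (limma adjusted p = 0.192). The death genes Bbc3 (Puma) and Pmaip1 (Noxa) and the stress gene Sesn2 were on the array but were not retained by any of their 2, 3 and 2 probes. Without wild type Sample923, 5 of the 30 were higher in place of 3.

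Among p53 and its regulators, 19 of 25 genes were measured, and 2 were lower in FRG1 muscle. Chek2, a kinase that activates p53 after DNA breaks, read 5.63, 5.42 and 5.47 in FRG1 Sample871, Sample873 and Sample874, against 6.23, 6.35 and 6.25 in wild type Sample872, Sample906 and Sample923. It was 1.70-fold higher in wild type muscle (log2 fold change -0.77 ± 0.12 SE, limma adjusted p = 0.00266). Cop1, a ubiquitin ligase that acts on p53, was 1.64-fold higher in wild type muscle (-0.71 ± 0.12, limma adjusted p = 0.00471). Mdm4, the partner of Mdm2 in holding p53 back, had -0.20 ± 0.13 (limma adjusted p = 0.371). Trp53 itself was not analysed here and Trp73 was not retained. The median of the list was -0.01, with 9 of 19 above 0.

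The relatives of the 10 genes showed 1 higher and 1 lower of 10 measured, with a median of -0.03. Phlda1, a relative of Phlda3, was 1.56-fold higher in FRG1 muscle (log2 fold change 0.64 ± 0.13 SE, limma adjusted p = 0.0118), a call lost without FRG1 Sample873 (limma adjusted p = 0.053). Ccng2, the relative of cyclin G1 that responds to FoxO factors, was 1.59-fold higher in wild type muscle (-0.67 ± 0.17, limma adjusted p = 0.029), a call lost under 7 of 14 alternative settings. The p21 relatives Cdkn1b (p27) and Cdkn1c (p57) had -0.36 ± 0.18 (limma adjusted p = 0.232) and 0.03 ± 0.26 (limma adjusted p = 0.955). Trp53inp2 had -0.23 ± 0.11 (limma adjusted p = 0.211) and Sesn3 had -0.08 ± 0.13 (limma adjusted p = 0.725).

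The BCL2 family and caspases, the machinery of cell death, had 18 of 24 genes measured and 0 calls in either direction by limma. At an unadjusted p under 0.05 by limma, 1 was higher and 1 lower, beside 1456 and 1680 of all 10287 genes. The list's median log2 fold change was 0.05. Bax, which belongs to this family, was not analysed here.

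Among G1 cyclins, their kinases and kinase inhibitors, 2 of 18 measured genes were higher in FRG1 muscle, and the median was 0.03. Ccnd1 (cyclin D1), which drives entry into the cycle, was 1.67-fold higher (log2 fold change 0.74 ± 0.12 SE, limma adjusted p = 0.00269). Cdkn2b (p15), an inhibitor of the cyclin D kinases, was 1.62-fold higher (0.70 ± 0.12, limma adjusted p = 0.00553). Without wild type Sample872, 4 genes of the list were higher.

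A further list held cell cycle genes that p21 is known to repress through the DREAM complex. Of 15 measured genes 3 were higher and 1 was lower, with a median log2 fold change of 0.27, and 11 of 15 were above 0. Top2a, Birc5 and Plk1 were detected on 3 FRG1 and 0 wild type arrays, so they were retained through the FRG1 group alone and had to be above 0. Over the genes of the list detected on all 6 arrays, 2 were higher by limma (Mcm5 and Mcm6) and the others did not pass, with a median of 0.18. The replication helicase subunits Mcm5 and Mcm6 were 1.88-fold (limma adjusted p = 0.00208) and 1.97-fold (limma adjusted p = 0.00529) higher in FRG1 muscle. Top2a, the topoisomerase of dividing cells, was not well above background on any wild type array and was at least 1.03-fold higher in FRG1 muscle (limma adjusted p = 0.04997), and nothing is read from its call, since the filter bears on it. The mitotic kinase Aurka was lower (-0.50 ± 0.14 SE, limma adjusted p = 0.0435) and was detected on 1 of 3 FRG1 arrays. The calls of Top2a and Aurka were lost under 8 and 11 of 13 alternative settings.

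In the list of Eda2r signalling genes, which includes the ligand gene Eda, 2 of 10 measured genes were higher and 1 lower, with a median log2 fold change of 0.08. Map3k14 (NIK), the kinase of the non-canonical NF-kappaB pathway, was higher in FRG1 muscle (0.65 ± 0.12 SE, limma adjusted p = 0.00788). Relb, a subunit of that pathway, was also higher (0.59 ± 0.16, limma adjusted p = 0.0357), and Ikbkg (NEMO), a part of the canonical kinase complex, was lower (-0.42 ± 0.11, limma adjusted p = 0.0358). Those calls of Relb and Ikbkg were lost under 7 and 9 of 14 alternative settings, and a second Ikbkg probe had a log2 fold change of 0.37. The ligand gene Eda had -0.13 ± 0.17 (limma adjusted p = 0.661).

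**Figure D5:**
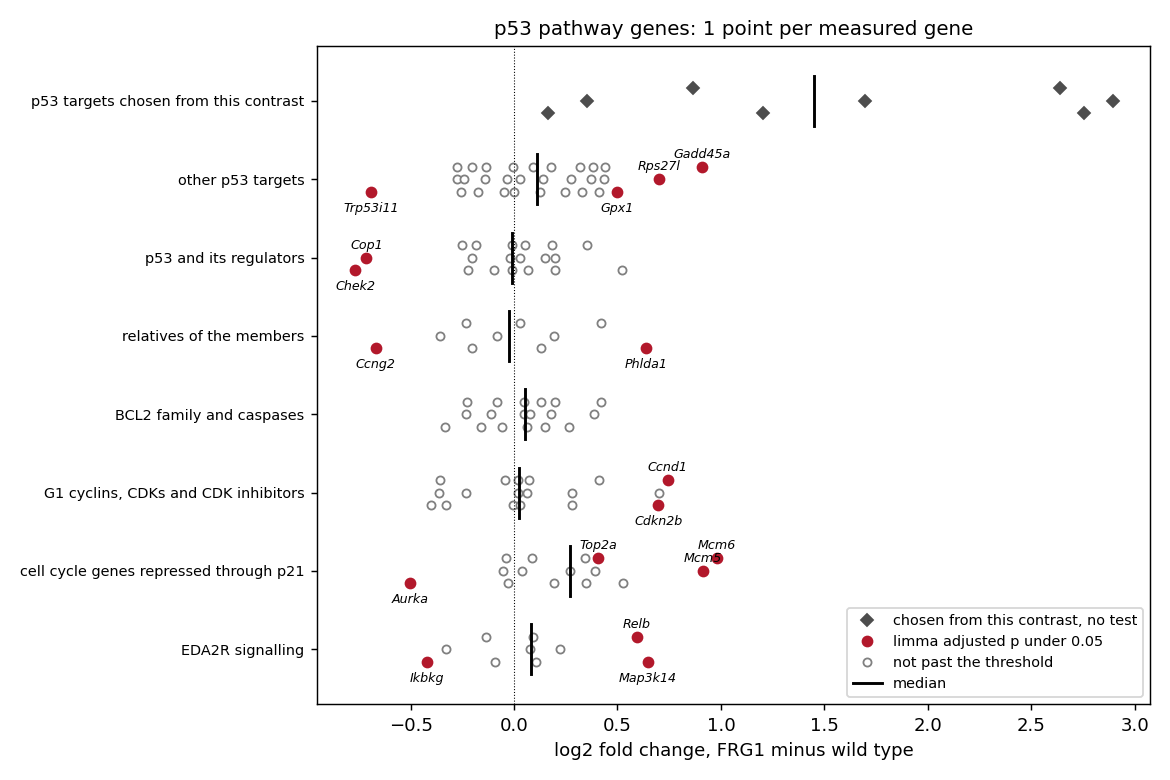
Log2 fold change (FRG1 minus wild type) of every measured gene of the 8 chosen p53 targets and of the 7 other lists, with 1 point per gene and the list median marked. The chosen targets, picked from this comparison, have a median of 1.45, and the medians of the other lists lie between -0.03 and 0.27. The highest of these, for the genes repressed through p21, includes Top2a, Birc5 and Plk1. Those genes were retained through the FRG1 group alone and had to be higher there, so nothing is read from the call of Top2a.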

How the data were processed

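Per the file headers, the authors deposited unnormalized signal intensity values and detection p-values of 46632 probes on 6 arrays. They also deposited a table of processed intensity values, made with lumi per the submitters' processing notes, which served as an alternative. Which lumi version and settings were used is not stated. Muscle RNA was purified with a kit for fibrous tissue and labelled with biotin, per the labels' protocols.

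From the deposited intensity values, log2 levels were computed with neqc of limma 3.58.1 (R 4.3.3, offset 16, negative controls inferred from detection p-values), which understates fold changes of dim probes. Probes detected at p under 0.05 on at least 3 arrays were fitted with lmFit and eBayes (group as the only term, two-sided, Benjamini-Hochberg over 19563 probes, threshold 0.05). A gene is its retained probe with the highest mean. A probe not detected on any array of a group gets a bound, set against the lowest detected signal. Symbols came from the platform annotation: 29976 probes had 1 symbol, 10 several and 16646 none, and 29921 matched RefSeq (GRCm38.p6).

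The members, lists and tests were chosen with earlier results of these data known. Named are all members, list genes past the threshold, up to 12 per list with the smallest p, fixed regulators and relatives, the 5 genes most like Cdkn1a, and markers where a list is summed. Zmat3 and the second Ikbkg probe were named after their values were seen. Summed marker intensities are normalized values less the offset, back on the linear scale. The fit was tested on simulated data.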

Additional observations from a re-analysis of the deposited data

How the results depend on the processing

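No paired analysis was possible because the groups share no sample numbers, and the slide block was not run because no slide was named. The log2 fold changes of the 8 p53 targets kept their sign under all 14 alternatives, with ranges of 2.36 to 3.29 (Cdkn1a), 1.85 to 2.87 (Eda2r), 1.52 to 3.11 (Zfp365), 1.21 to 2.12 (Trp63), 1.10 to 1.29 (Phlda3), 0.52 to 0.95 (Mdm2), 0.30 to 0.45 (Ccng1) and 0.09 to 0.30 (Trp53inp1). Over all probes, 1389 were higher and 1313 lower. The authors' processed table gave 894 and 722. Median scaling shifted the median of all probes by 0.13 log2 units and gave 1923 and 507, so that 79.1% of calls were higher in place of 51.4%.

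Leaving out each sample in turn gave 748 to 1447 probes higher and 560 to 1249 lower; the total fell to 1334 without FRG1 Sample871 and 1330 without Sample873, where fewer samples enter. The ranges over these fits were 2 to 5 higher and 1 lower for other p53 targets, 0 higher and 2 lower for regulators, 0 to 1 higher and 0 to 1 lower for relatives, 0 and 0 for the BCL2 family, 2 to 4 higher and 0 lower for G1 genes, 2 to 3 higher and 0 to 1 lower for genes repressed through p21, and 1 to 2 higher and 0 lower for EDA2R signalling.

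Other p53 targets had 6 higher with an offset of 50 or median scaling, 0 lower under median scaling, and 2 lower with no detection filter or averaged probes. Regulators had 1 higher under median scaling and 2 with averaged probes. Relatives had 2 higher under median scaling or cyclic loess, and 0 lower under median scaling, in the authors' table or with no filter. The BCL2 family had 1 higher under median scaling or cyclic loess. G1 genes had 1 lower without background correction, with an offset of 50, with no filter or with detection on all 6 arrays. Genes repressed through p21 had 5 higher under median scaling, 0 lower under 7 of the alternatives that keep all samples, and a median of 0.46 in the authors' table and 0.07 with no filter. EDA2R signalling had 1 higher in the authors' table or with no filter, and 0 lower under median scaling, in the authors' table or with averaged probes. The cause was not tested. Signal over background limits the dim probes, among them Mcm5, Chek2, Top2a and Aurka.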
